A study of Homo sapiens with 9 samples.

Results

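The genes of the cytosolic ribosomal proteins were examined in RNA sequencing of MV4-11, a human acute myeloid leukaemia cell line of myelomonocytic type. Members were the protein-coding genes of the deposited table whose symbols follow the RPL or RPS pattern, together with RPLP0, RPLP1, RPLP2 and RPSA. The ribosomal S6 kinases, whose symbols begin with RPS6K, were left out. The rule used symbols and gene class only, and it found 86 genes among 60612, of which 19937 are protein-coding. By role, 43 belong to the large subunit, 31 to the small subunit and 3 to the ribosomal stalk, and 9 are paralogs of another member. FAU, RPL36AL and RACK1 also encode ribosome components and do not match the rule, so they are described separately.

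The 9 libraries carry the title stems NCO, NC1 and KO1, with 3 replicates each, and were all harvested after 72 h. In the labels, NCO carries a CD36 knockdown and received decitabine, NC1 is wild type and received decitabine, and KO1 is wild type and received vehicle. CD36 is a scavenger receptor involved in lipid uptake, and decitabine is a cytosine analogue that depletes DNA methyltransferases. The stem KO1 reads like a knockout but is described as wild type given vehicle. Groups are therefore named by stem and directions are stated between stems. The means of knockdown and the origin of replicates are not given in the sources used here. The p-values therefore measure only the spread between these libraries, which may be technical. A knockdown group given vehicle is not among these libraries, so whether the drug effect depends on the knockdown could not be tested.

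Values are in FPKM, fragments scaled by transcript length and library total, so levels can be compared between genes per length. The depth of each library is unknown. FPKM sums per library ran from 493061 to 530097, and 11885 to 12280 genes reached 1 FPKM. CD36 itself averaged 2.49 ± 0.341 FPKM in NCO, 2.18 ± 0.373 in NC1 and 0.126 ± 0.0231 in KO1 (SD, n = 3 each). Its NCO and NC1 values did not differ beyond their spread in an exact two-sided permutation test (p = 0.4), and each exceeded KO1 with p = 0.1, the smallest value that 3 libraries against 3 allow. The order of CD36 thus goes against the knockdown label of NCO. Of the myelomonocytic markers, CD68, CD33, LYZ, PTPRC, ITGAM and HOXA9 were detected in all libraries, MPO lay between 2.11 and 3.25 FPKM, MEIS1 between 0.0422 and 0.309 FPKM and FLT3 between 3.15 and 4.55 FPKM. CD68, a macrophage marker, moved with the groups, at 196 FPKM on average in NCO, 240 in NC1 and 72.1 in KO1, and its part in the results below was not tested. Of the markers of other cells, CD3E was at 0 in every library, EPCAM and HBB stayed under 1 FPKM, COL1A1 reached 1.60 FPKM and PECAM1 28.3 FPKM. NC1 replicate 3 stood apart from the other NC1 libraries in several of the values below.

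Cytosolic ribosomes translate nuclear-encoded messages and are built in the nucleolus from ribosomal RNA and about equal numbers of each ribosomal protein. The messages of these proteins belong to the most abundant in a growing cell. Most begin with a cytosine followed by a run of pyrimidines, the 5′ terminal oligopyrimidine tract, through which mTOR signalling and the RNA-binding protein LARP1 control their translation and stability. Loss of 1 copy of single members is known from Diamond-Blackfan anaemia. Loss of 1 copy of RPS14 is known from the anaemia of myelodysplastic syndrome with deletion of the long arm of chromosome 5.

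The tract at the start of the message is the sequence feature that members share, and it is shown for members described below, with and without the tract, picked with their values known. The windows are from RefSeq on GRCh38.p14 and hold 10 bases before and 20 bases from the annotated start, written 5′ to 3′ on the gene's strand. Capitals mark the run of pyrimidines that begins at the start, so a single capital is a run of 1 base and windows without capitals have none.
RPS14 (chr5:150449720-150449749, minus strand): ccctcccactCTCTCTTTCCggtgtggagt
RPS3A (chr4:151099618-151099647, plus strand): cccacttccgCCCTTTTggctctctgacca
RPLP0 (chr12:120201092-120201121, minus strand): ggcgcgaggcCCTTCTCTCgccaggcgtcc
RPLP2 (chr11:809957-809986, plus strand): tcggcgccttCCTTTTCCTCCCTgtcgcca
RPS18 (chr6:33272065-33272094, plus strand): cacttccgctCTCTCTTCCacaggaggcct
RPL26 (chr17:8383174-8383203, minus strand): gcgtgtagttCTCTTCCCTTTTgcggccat
RPL28 (chr19:55385922-55385951, plus strand): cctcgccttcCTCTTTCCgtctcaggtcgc
RPS24 (chr10:78033853-78033882, plus strand): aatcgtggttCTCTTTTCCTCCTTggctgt
RPS29 (chr14:49598691-49598720, minus strand): agcgcgcagcTggcagcggtggttgtttct
RPL15 (chr3:23916535-23916564, plus strand): tggggcctgcTggaggagcttcacgcagtc
RPL9 (chr4:39458903-39458932, minus strand): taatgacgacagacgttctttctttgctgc
RPL22L1 (chr3:170870176-170870205, minus strand): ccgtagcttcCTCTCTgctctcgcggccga
RPL11 (chr1:23691769-23691798, plus strand): cctggcccataaggccctcggccggaagct
RPL26L1 (chr5:172958719-172958748, plus strand): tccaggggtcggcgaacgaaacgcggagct
RPS27L (chr15:63157458-63157487, minus strand): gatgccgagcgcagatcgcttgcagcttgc
Among the shown windows the runs are 14 bases in RPS24, 13 in RPLP2, 12 in RPL26 and 10 in RPS14. They are 1 base in RPS29 and RPL15, and RPL9 and RPL11 have none at the RefSeq start. The start of a message can vary between cells, and the windows describe the annotation and not the messages of these libraries.

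Promoter windows of 300 bases, from 250 bases before to 50 after the start, were matched for 69 of the 86 members. A cytosine at the start with at least 5 pyrimidines in a row was found in 44 of them, or 63.8%, against 4.04% of all 27305 promoters in the table and 5.70% of the promoters of tested genes. The median run at the start was 7 bases among members and 0 among all promoters. A run of at least 5 pyrimidines that began within 5 bases of the start was found in 79.7% of members and in 30.05% of all promoters. On either strand of the 300 bases, the word CCGGAAG, the core of ETS and GABP sites, occurred in 33.3% of members, 10.7% of all promoters and 20.7% of promoters of tested genes. AAGATGG, a core of YY1 sites, occurred in 13.0%, 6.06% and 8.02%, the E-box CACGTG in 5.80%, 7.43% and 10.4%, and TATAAA in 10.1%, 11.95% and 5.14% of the same sets. CCGGAAG and AAGATGG can overlap by 3 letters, and a match describes the sequence only. For 49 of the 69 members the RefSeq start lay within 50 bases of the gene start in the deposited table.

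All 77 members other than the paralogs passed the filter of at least 1 FPKM in at least 3 of the 9 libraries, as did 6 of the 9 paralogs. The median level of the 83 tested members was on average 1089 FPKM in NCO, 1110 in NC1 and 1336 in KO1. Ranks among all genes were not computed. Of the members, RPS18 had the highest mean level, with 4418 ± 335 FPKM in NCO, 4788 ± 548 in NC1 and 6625 ± 179 in KO1 (SD, n = 3 each). RPS27, RPS2, RPL13A, RPS10 and RPL12 followed in this order. The lowest member that is no paralog was RPS26, at 147 ± 30.04 FPKM in NCO, 150 ± 5.77 in NC1 and 149.7 ± 8.19 in KO1. The paralogs RPL39L, RPL7L1, RPL22L1, RPL26L1 and RPS27L lay below it. RPL10L, known from testis, and the Y-linked RPS4Y2 were listed at 0 in every library, and RPL3L, known from heart and skeletal muscle, averaged 0.0461 FPKM over all libraries.

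Members together made up a smaller part of the FPKM sum in NCO and NC1 than in KO1. Their summed share was 21.2%, 21.3% and 22.1% in the NCO libraries, 20.9%, 21.1% and 22.4% in the NC1 libraries, and 25.7%, 26.3% and 25.3% in the KO1 libraries. Every NCO and NC1 library lay below every KO1 library, and NCO and NC1 overlapped. The means were 21.5% ± 0.491 in NCO, 21.5% ± 0.820 in NC1 and 25.8% ± 0.489 in KO1 (SD, n = 3 each). The mitochondrially encoded genes took 18.1% ± 0.571 of the sum in NCO, 16.5% ± 1.72 in NC1 and 14.9% ± 0.433 in KO1, with NC1 replicate 3 at 14.5%. With these genes taken out of the sum, the share of ribosomal protein genes was 26.2% ± 0.754 in NCO, 25.7% ± 0.450 in NC1 and 30.3% ± 0.483 in KO1. A lower share can come from fewer cells that express these genes, from less of their RNA per cell or from more RNA of other genes. These cannot be told apart in bulk RNA.

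**Figure D1:**
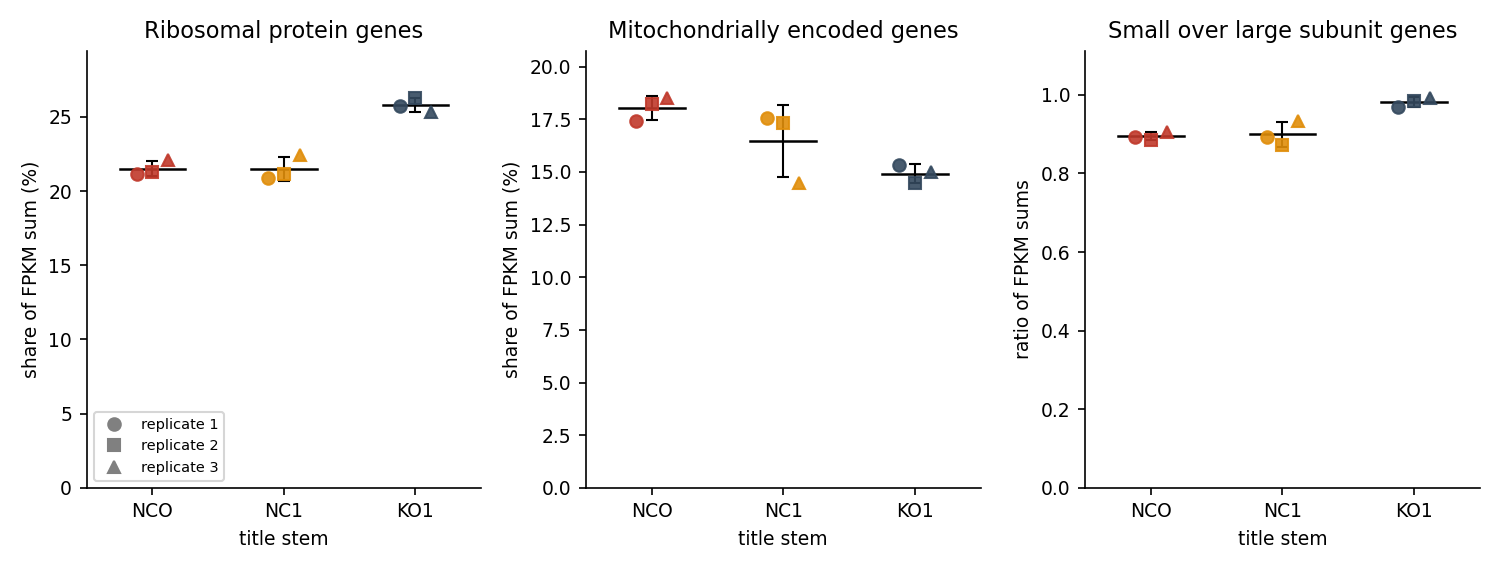
Percent of the FPKM sum held by the ribosomal protein genes (left) and by mitochondrially encoded genes (middle), and the ratio of the FPKM sums of small over large subunit genes, the latter with the stalk genes (right), per library, with mean and SD (n = 3). The ribosomal protein share lies between 20.9% and 22.4% in NCO and NC1 and between 25.3% and 26.3% in KO1, and NC1 replicate 3 has the lowest mitochondrial share of the NC1 libraries.

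The balance between the subunits also differed. The FPKM sum of small subunit genes was divided by that of large subunit and stalk genes together. This ratio was 0.893, 0.886 and 0.906 in NCO, 0.893, 0.872 and 0.935 in NC1, and 0.970, 0.983 and 0.993 in KO1. All NCO and NC1 values lay below the KO1 values. This ratio stays as it is when a library is multiplied by a single factor. In NC1 minus KO1 the median log2 fold change was -0.43 for small and -0.24 for large subunit genes as deposited, and -0.18 and -0.12 after quantile normalization. NC1 replicate 3 was the closest of the 6 to KO1.

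NC1 against KO1 is, by the labels, decitabine against vehicle in wild-type cells. In the deposited values most members were lower in NC1, and a few, led by RPL26 and RPL28, were higher. Of the 83 tested members, 58 were called lower, 6 higher and 19 were not called, at a limma adjusted p under 0.05. Of all 12586 tested genes, 18.3% were called lower and 28.9% higher, together 47.2%. The median log2 fold change of members was -0.26, beside 0.06 for all tested genes, and 71 of the 83 had a negative value. The libraries of both groups did not overlap for 59 members that were lower and 5 that were higher in NC1, where the shares over all tested genes were 21.9% and 34.5%. Without NC1 replicate 3, 59 members were called lower and 4 higher, and without KO1 replicate 1, 52 were called lower and 3 higher. The member median was -0.15 after quantile normalization and -0.19 where mitochondrial genes were taken out. Under trimmed-mean scaling it was -0.34, so its size changed with the scaling while its sign stayed negative. When libraries were scaled to the same median of the members, the family centre was near 0 by construction. This setting therefore cannot test the direction of the family. The 27 lower and 17 higher members there describe differences within the family. That scaling moved the median of all tested genes to 0.28 in NC1 minus KO1, with 6862 of the 12586 called higher and 703 lower.

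**Figure D2:**
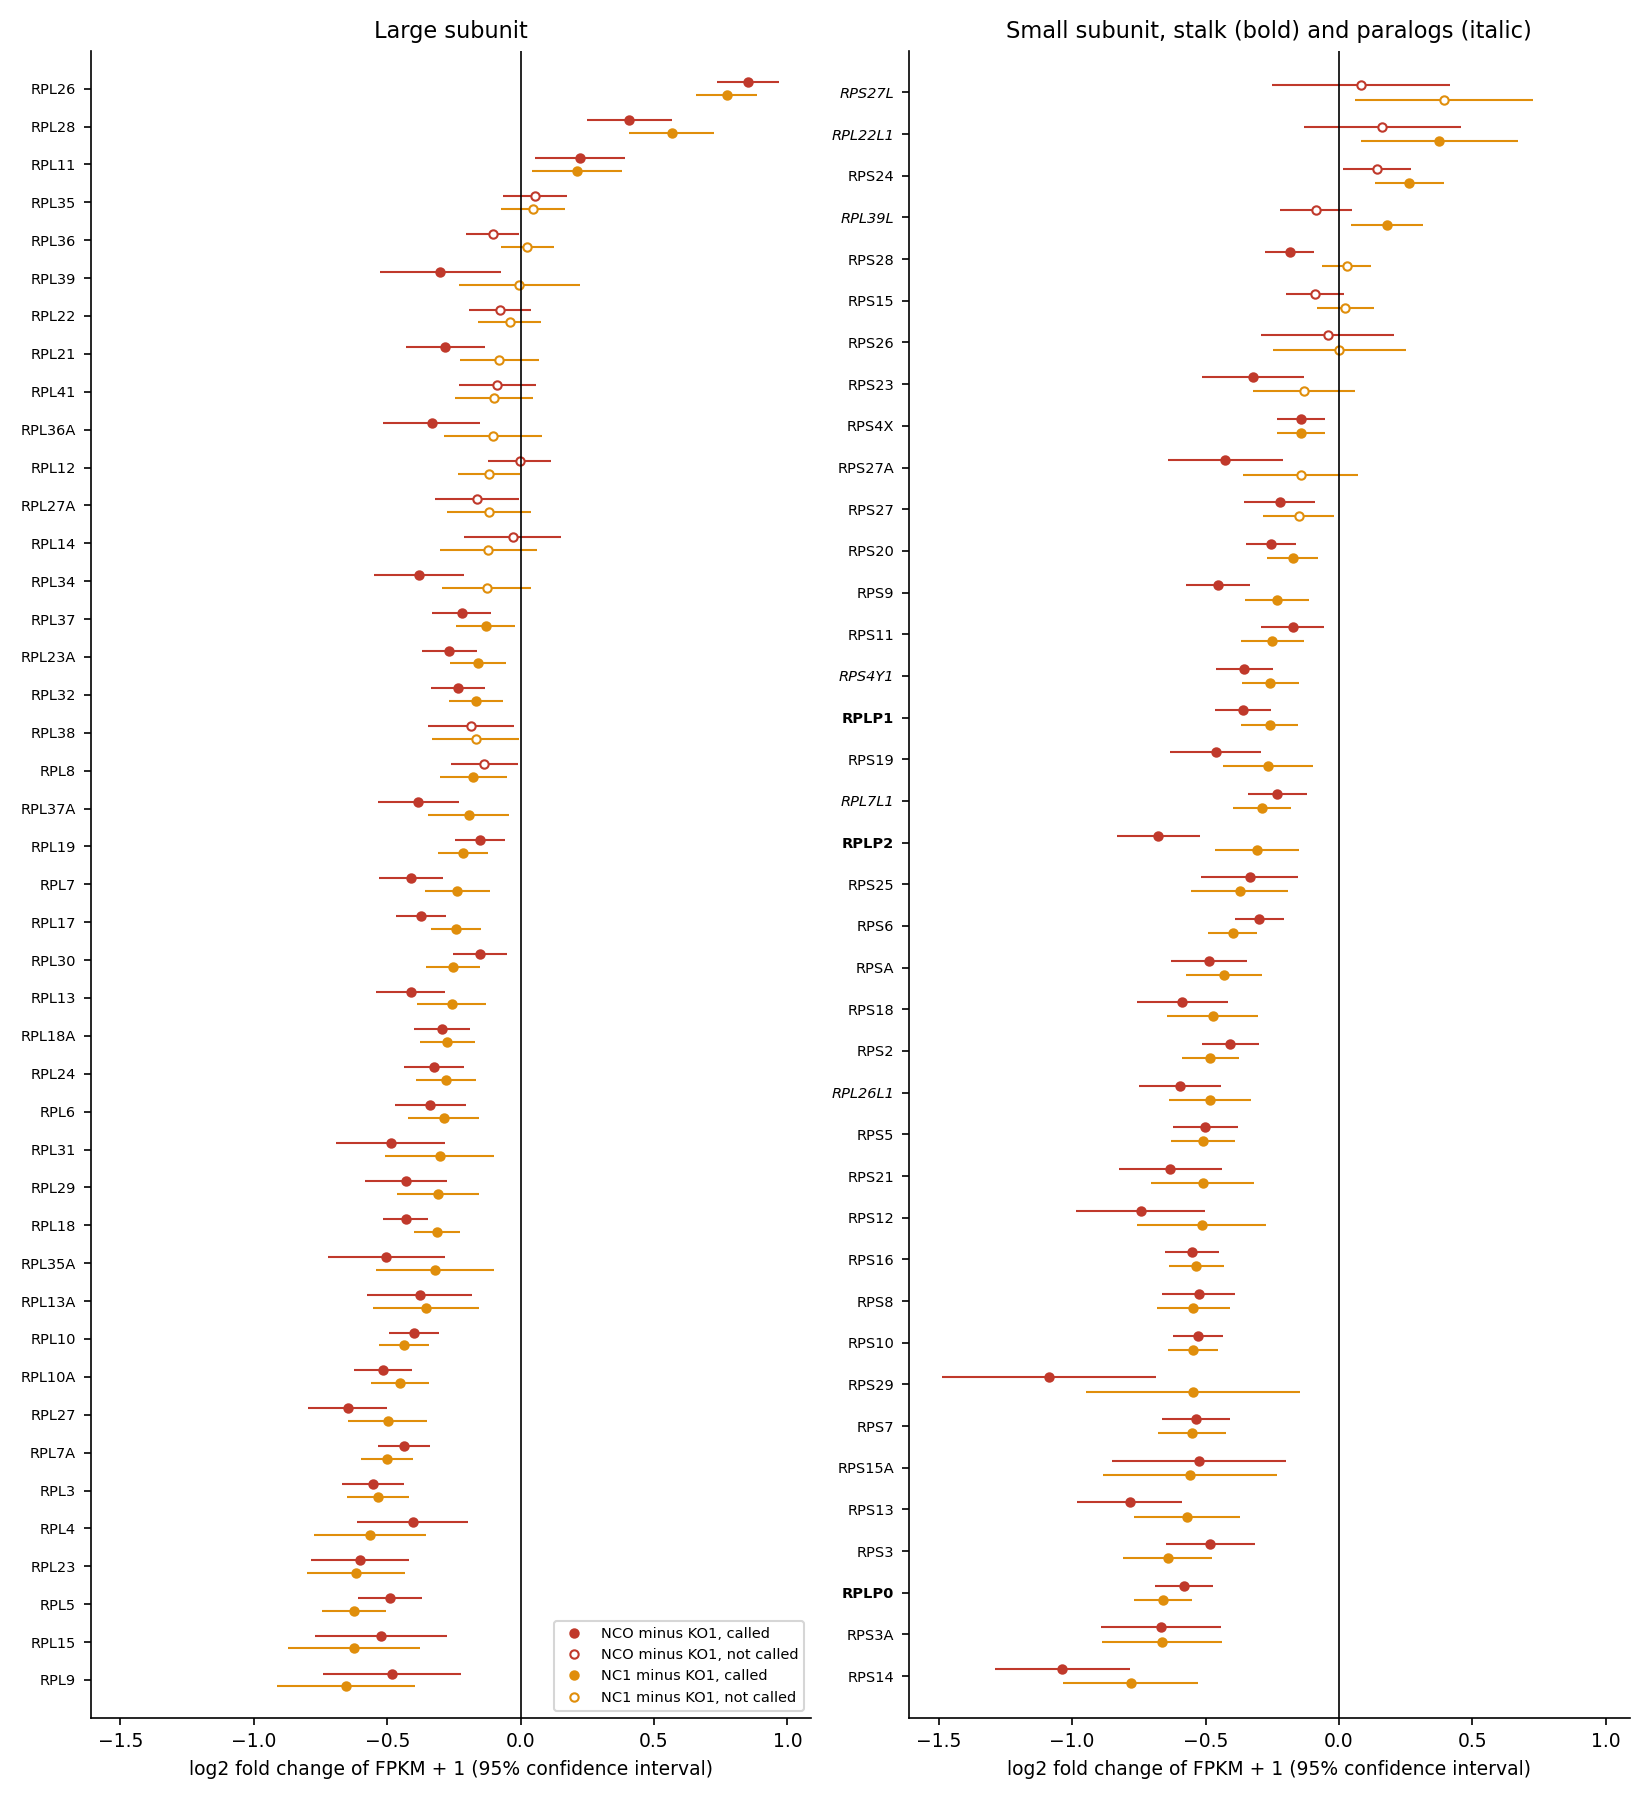
Log2 fold change of FPKM + 1 with its 95% confidence interval for the tested members shown, in NCO minus KO1 (red) and NC1 minus KO1 (orange), for large subunit genes (left) and for small subunit, stalk (bold) and paralog (italic) genes (right). Filled points were called at a limma adjusted p under 0.05. Most points lie left of 0 in the deposited values, and RPL26 and RPL28 lie right of 0 in both comparisons. Where libraries share the member median, the median of the members in NC1 minus KO1 is 0.01.

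In the large subunit, 28 of 43 genes were lower in NC1 than in KO1 and 3 were higher, with a median log2 fold change of -0.24. The shares over all tested genes were 18.3% lower and 28.9% higher. RPL26 (ENSG00000161970, chromosome 17, 8377516 to 8383213, minus strand), which sits at the exit of the nascent peptide tunnel and is the main ribosomal target of the modifier UFM1, moved furthest upward. It had 1898, 1946 and 1953 FPKM in NCO, 1887, 1906 and 1699.96 FPKM in NC1, and 1078, 1112 and 1023 FPKM in KO1. The NC1 libraries were all above the KO1 libraries, and NC1 replicate 3 was the lowest of the 3. NC1 exceeded KO1 by 0.77 on the log2(FPKM + 1) scale (95% confidence interval 0.66 to 0.89, limma adjusted p = 6.66e-07), a ratio of means of 1.71. Relative to the median of the members its difference was 1.03. RPL26 was called higher under all 19 alternative settings, with differences between 0.69 and 1.04.

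RPL28 (chromosome 19, 55385932 to 55403250, plus strand), a large subunit protein without a bacterial counterpart, had 416, 388 and 359 FPKM in NCO, 392.2, 452 and 455 FPKM in NC1, and 294, 308 and 273 FPKM in KO1. The KO1 libraries were the lowest, and NCO and NC1 overlapped. NC1 exceeded KO1 by 0.57 (0.41 to 0.73, limma adjusted p = 8.53e-05), and this call also held under all 19 alternatives. UBE2S lies on the opposite strand and overlaps RPL28. Its level was lower, at 89.9 FPKM on average in NCO, 104 in NC1 and 132 in KO1, and the sources used here do not state whether counting used strand. RPL11, which joins RPL5 and the 5S ribosomal RNA in a particle that binds MDM2, had 1293, 1309.8 and 1484 FPKM in NCO, 1477, 1353 and 1224 FPKM in NC1, and 1115, 1131 and 1252 FPKM in KO1. Its NC1 and KO1 libraries overlapped. The difference was 0.21 (limma adjusted p = 0.0422), and the call was lost without KO1 replicate 1, KO1 replicate 2, NC1 replicate 1, NC1 replicate 2 or NCO replicate 2, with adjusted p-values between 0.0528 and 0.159. RPL11 was also not called with no filter, under trimmed-mean scaling, without trend and robust settings or with a replicate term. The same held in a fit of only the groups compared.

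The large subunit genes with the largest differences downward were RPL9 and RPL15. RPL9 had 918, 769 and 789 FPKM in NCO, 604, 755 and 853 FPKM in NC1, and 1061, 1196 and 1193 FPKM in KO1, and its NC1 level fell by 0.65 on the log2 scale relative to KO1 (limma adjusted p = 0.00116). RPL15, mutated in some families with Diamond-Blackfan anaemia, had 523, 522 and 508 FPKM in NCO, 440.4, 534 and 479 FPKM in NC1, and 872, 772 and 615 FPKM in KO1. Its log2 difference was -0.63 (limma adjusted p = 0.00115), and KO1 replicate 3 was the closest KO1 library to NC1. RPL5, the partner of RPL11, was at 1087 ± 25.9 FPKM in NCO, 992 ± 69.5 in NC1 and 1527 ± 54.4 in KO1, with an NC1 minus KO1 difference of -0.62 (limma adjusted p = 4.32e-06). The signs of RPL5 and RPL11 were thus opposite, while the RPL11 call held under 9 of the 19 alternatives. In the large subunit, 12 genes were not called.

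In the small subunit, 24 of 31 genes were lower in NC1 than in KO1, RPS24 was higher and 6 were not called, with a median of -0.43. The shares over all tested genes were 18.3% lower and 28.9% higher. RPS14 (ENSG00000164587, chromosome 5, 150442635 to 150449739, minus strand), the gene whose reduced dose causes the red cell defect of the deletion on chromosome 5, moved furthest downward. It had 437, 453 and 463 FPKM in NCO, 476, 487 and 674 FPKM in NC1, and 961, 960.2 and 861 FPKM in KO1. No NCO or NC1 library reached the lowest KO1 library, and NC1 replicate 3 stood well above the other NC1 libraries. NC1 fell by 0.78 relative to KO1 (95% confidence interval -1.03 to -0.53, limma adjusted p = 0.000317), a ratio of means of 0.588. The call held under all 19 alternatives, with differences between -0.94 and -0.51. Relative to the median of the members the difference was -0.52.

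RPS3A, which lines the platform of the small subunit, had 1274, 1318 and 1369 FPKM in NCO, 1185, 1214 and 1607 FPKM in NC1, and 2166, 2189 and 1938 FPKM in KO1. The KO1 libraries were the highest, and NC1 replicate 3 was again the closest to them. Its NC1 minus KO1 difference was -0.66 (limma adjusted p = 0.000402). RPS3, at the entry of the messenger channel, was at 2058 ± 217 FPKM in NCO, 1838 ± 138 in NC1 and 2864 ± 58.3 in KO1, a difference of -0.64 (limma adjusted p = 4.54e-05). RPS24 had 1495, 1594 and 1633 FPKM in NCO, 1731, 1668 and 1732 FPKM in NC1, and 1317, 1542 and 1423 FPKM in KO1. It was the only small subunit gene called higher in NC1 in the deposited values, by 0.26 (0.13 to 0.39, limma adjusted p = 0.0035), and its NC1 libraries lay above the KO1 libraries.

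The abundant small subunit genes RPS18, RPS2 and RPS10 were all lower in NC1. RPS10 was at 3201 ± 73.7 FPKM in NCO, 3159 ± 22.3 in NC1 and 4621 ± 162 in KO1, a difference of -0.55 (limma adjusted p = 1.70e-06). RPS18 differed by -0.47 (limma adjusted p = 0.000482), and RPS2, at 3815 ± 15.4 FPKM in NCO, 3627 ± 218 in NC1 and 5061 ± 133 in KO1, by -0.48 (limma adjusted p = 1.46e-05). The call of RPS2 ended after quantile normalization, with a value of -0.05 (limma adjusted p = 0.422). RPS27 was at 4868 ± 366 FPKM in NCO, 5104 ± 103 in NC1 and 5673 ± 322 in KO1, and NC1 against KO1 was not called (limma adjusted p = 0.0596). From the large subunit, RPL13A was lower in NC1, at 3446 ± 349 FPKM in NCO, 3493 ± 179 in NC1 and 4482 ± 483 in KO1 (difference -0.35, limma adjusted p = 0.00757), with a value of 0.01 after quantile normalization. RPL12 was at 3411 ± 88.7 FPKM in NCO, 3150 ± 126 in NC1 and 3423 ± 208 in KO1, and NC1 against KO1 was not called (limma adjusted p = 0.0877).

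**Figure D3:**
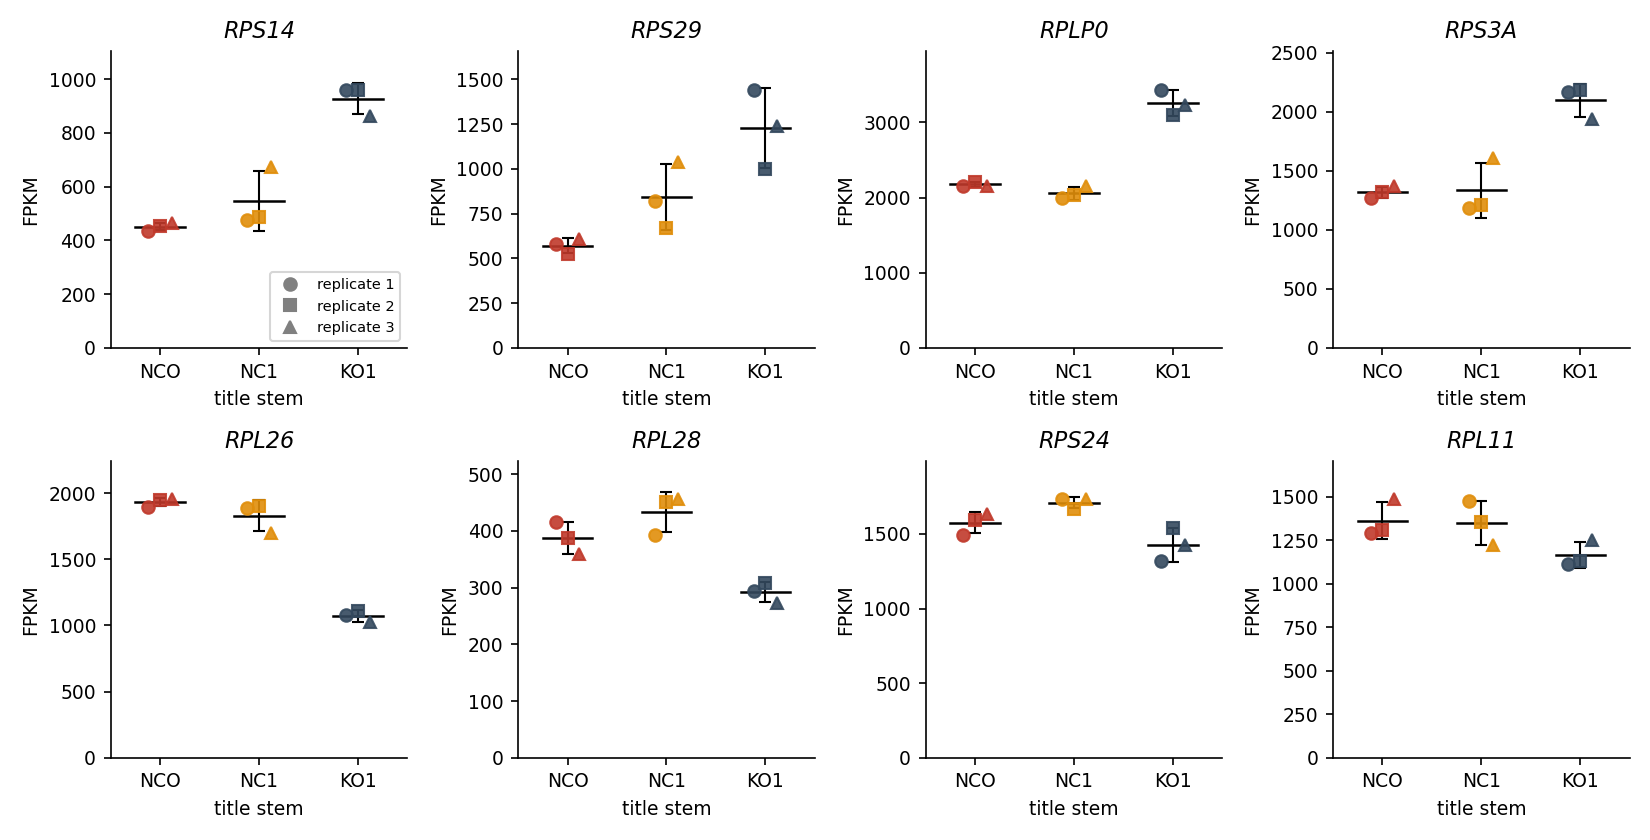
FPKM per library of 4 members that were lower (top row) and 4 that were higher (bottom row) in NC1 than in KO1, with mean and SD (n = 3). RPS14 lies between 437 and 674 FPKM in NCO and NC1 and between 861 and 961 FPKM in KO1, and RPL26 lies between 1699.96 and 1953 FPKM in NCO and NC1 and between 1023 and 1112 FPKM in KO1.

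The stalk proteins recruit the elongation factors, with RPLP0 at the base and pairs of RPLP1 and RPLP2 attached to it. All 3 genes were called lower in NC1 than in KO1, beside 18.3% of all tested genes. RPLP0 had 2159, 2214 and 2150.3 FPKM in NCO, 1991, 2032 and 2153 FPKM in NC1, and 3438, 3098 and 3236 FPKM in KO1. The KO1 libraries stood above all others, and the difference was -0.66 (-0.77 to -0.55, limma adjusted p = 1.40e-06). RPLP1 was at 1148 ± 56.1 FPKM in NCO, 1229 ± 45.1 in NC1 and 1472 ± 31.8 in KO1, a difference of -0.26 (limma adjusted p = 0.00107). RPLP2 had 1339, 1374 and 1409 FPKM in NCO, 1666, 1652 and 2035 FPKM in NC1, and 2148, 2186 and 2261 FPKM in KO1. The groups did not overlap, and NC1 replicate 3 was the closest NC1 library to KO1. The NC1 minus KO1 difference of RPLP2 was -0.31 (limma adjusted p = 0.00437), a call that ended after quantile normalization. With libraries scaled to the same member median, 1 of the 3 stalk genes remained lower, RPLP0, and RPLP1 had a value of 0.008. Under that scaling 703 of all 12586 tested genes were lower.

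Paralogs replace or accompany their partners in some tissues, and in NC1 against KO1 they did not all follow the family. RPL22L1, which is repressed by RPL22 in mouse, had 19.4, 25.3 and 23.2 FPKM in NCO, 22.1, 26.3 and 31.2 FPKM in NC1, and 21.5, 21.6 and 17.3 FPKM in KO1. NC1 was called higher by 0.38 (0.08 to 0.67, limma adjusted p = 0.0388), and the call was lost without KO1 replicate 1, KO1 replicate 3, NC1 replicate 2, NC1 replicate 3 or NCO replicate 3, with adjusted p-values between 0.0511 and 0.139. RPL22L1 was also not called with no filter, under trimmed-mean scaling or without trend and robust settings. Its partner RPL22 was at 221 ± 3.91 FPKM in NCO, 227 ± 15.0 in NC1 and 233 ± 10.2 in KO1 and was not called. RPL39L, known from testis and some tumours, had 51.9, 48.3 and 50.3 FPKM in NCO, 58.5, 56.8 and 66.6 FPKM in NC1, and 51.0, 54.9 and 54.1 FPKM in KO1. Its NC1 excess of 0.18 (limma adjusted p = 0.0327) was lost without KO1 replicate 1, KO1 replicate 3 or NC1 replicate 3, with adjusted p-values between 0.0574 and 0.118. RPL39L was also not called with no filter, under trimmed-mean scaling, without trend and robust settings or in a fit of only the groups compared.

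RPL26L1 ran against RPL26, with 17.9, 18.8 and 18.9 FPKM in NCO, 21.9, 18.2 and 20.5 FPKM in NC1, and 27.9, 30.4 and 27.4 FPKM in KO1. It was lower in NC1, with a difference of -0.48 (limma adjusted p = 0.000212). RPL26L1 thus amounted to 0.960% ± 0.0134 of the RPL26 level in NCO, 1.11% ± 0.136 in NC1 and 2.67% ± 0.0761 in KO1 (SD, n = 3 each), a ratio that stays as it is when a library is multiplied by a single factor. RPL7L1, which acts in assembly of the large subunit, was at 35.3 ± 1.87 FPKM in NCO, 33.9 ± 0.995 in NC1 and 41.6 ± 0.556 in KO1 and was lower in NC1 (difference -0.29, limma adjusted p = 0.000738), a call that ended where libraries share the member median. RPS27L, the paralog of RPS27, had 5.40, 7.28 and 7.41 FPKM in NCO, 6.81, 9.66 and 9.17 FPKM in NC1, and 5.70, 5.51 and 7.60 FPKM in KO1. Its groups overlapped, and the difference of 0.39 was not called (0.06 to 0.73, limma adjusted p = 0.0528). RPS4Y1, the Y-linked copy of RPS4X, was lower in NC1 by a difference of -0.26 (limma adjusted p = 0.00125), which also ended under that scaling. Of the 6 tested paralogs, 2 were called higher and 3 lower, beside 28.9% and 18.3% of all tested genes. Without NC1 replicate 3 the paralog counts were 0 and 3. With libraries scaled to the same member median, 3 were higher and 1 lower, beside 6862 and 703 of all 12586 tested genes.

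Genes mutated or deleted in inherited ribosomal anaemias, in the deletion on chromosome 5 or acting on MDM2 formed a list of 11 members. In NC1 against KO1, 8 were lower, 2 were higher (RPL11 and RPS24) and RPS26 was not called, with a median of -0.32. Of all tested genes, 18.3% were called lower and 28.9% higher. RPS19, the gene most often mutated in Diamond-Blackfan anaemia, was at 610 ± 33.0 FPKM in NCO, 702 ± 77.1 in NC1 and 842 ± 56.7 in KO1. Its difference of -0.27 (limma adjusted p = 0.0154) was not called without KO1 replicate 3, NC1 replicate 1 or NC1 replicate 2, with adjusted p-values between 0.0508 and 0.0613, nor with no filter, after quantile normalization, where mitochondrial genes were taken out or where libraries share the member median. RPL35A was at 599 ± 70.7 FPKM in NCO, 679 ± 84.3 in NC1 and 846 ± 51.3 in KO1, and its difference of -0.32 (limma adjusted p = 0.0223) was not called without KO1 replicate 1, KO1 replicate 2, NC1 replicate 1 or NC1 replicate 2, with adjusted p-values between 0.0596 and 0.0805, nor with no filter or where libraries share the member median. RPS7, which binds MDM2, was at 1122 ± 37.7 FPKM in NCO, 1111 ± 80.3 in NC1 and 1628 ± 77.6 in KO1 (difference -0.55, limma adjusted p = 1.89e-05). RPL23, a further MDM2 binder, was at 275 ± 28.9 FPKM in NCO, 271 ± 23.1 in NC1 and 416 ± 25.7 in KO1 (difference -0.62, limma adjusted p = 0.000143). With libraries scaled to the same member median, 5 of the 11 were lower and 2 higher, beside 703 and 6862 of all 12586 tested genes.

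Of 5 members recurrently mutated or deleted in leukaemia, RPL5 and RPL10 were lower in NC1 than in KO1, RPL11 was higher, and RPL22 and RPS15 were not called. Of all tested genes, 18.3% were called lower and 28.9% higher. With libraries scaled to the same member median, 3 of the 5 were higher and 2 lower, beside 6862 and 703 of all 12586 tested genes. With no filter 0 of the 5 were higher. RPL10, mutated in T cell acute lymphoblastic leukaemia, was at 1166 ± 8.12 FPKM in NCO, 1137 ± 50.5 in NC1 and 1539 ± 24.2 in KO1 (difference -0.44, limma adjusted p = 1.11e-05). RPS15, mutated in chronic lymphocytic leukaemia, was at 1798 ± 36.2 FPKM in NCO, 1948 ± 126 in NC1 and 1912 ± 17.3 in KO1.

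NCO against NC1 compares, by the labels, cells with and without the CD36 knockdown under decitabine. Few members were called: 5 were lower in NCO, 0 were higher and 78 were not called in limma, where 8.62% of all tested genes were called lower and 6.12% higher, together 14.7%. After quantile normalization 3 were higher and 2 lower, beside 1072 and 923 of all 12586 tested genes. With mitochondrial genes removed from the sum 8 were higher and 4 lower, beside 1730 and 748 of 12549 tested genes. The median log2 fold change of members was -0.06, beside 0.01 for all tested genes, and it was 0.00 and 0.01 under those 2 scalings, so the family had no direction that held across scalings. Groups did not overlap for 21 members that were lower and 5 that were higher in NCO, where the shares over all tested genes were 16.8% and 17.5%. The count of members called was 3 without NCO replicate 1, 3 without NCO replicate 2 and 8 without NC1 replicate 3.

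RPLP2 had the clearest difference between NCO and NC1. Its values in FPKM, given above with the stalk, do not overlap between the groups, and NCO fell by 0.37 relative to NC1 (95% confidence interval -0.53 to -0.21, limma adjusted p = 0.00793). It was the 1 member of the 5 whose call held under all 19 alternatives. RPLP0 and RPLP1 were not called in the same comparison. RPS28 had 284, 269.8 and 283 FPKM in NCO, 315, 323 and 333 FPKM in NC1, and 310.3, 315 and 326 FPKM in KO1. Its NCO libraries lay below all others (NCO minus NC1 -0.21, limma adjusted p = 0.00897), and the call was lost after quantile normalization and with libraries scaled to the same member median. Pseudogenes named after RPS28 summed to more FPKM than RPS28 itself in every group, so its level is uncertain.

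RPL39L was lower in NCO than in NC1 by a difference of -0.27 (limma adjusted p = 0.0176), a call lost without NCO replicate 2 (adjusted p = 0.0694) and with no filter. RPS9 had 711, 697 and 751 FPKM in NCO, 779, 849 and 889.7 FPKM in NC1, and 1009, 996 and 953 FPKM in KO1, so that its 3 groups stood apart. Its NCO minus NC1 difference of -0.22 (limma adjusted p = 0.0226) was not called without NC1 replicate 2, NCO replicate 1 or NCO replicate 2, with adjusted p-values between 0.0637 and 0.0881. RPS9 was also not called with no filter, after quantile normalization or without trend and robust settings. RPL34 had 580.5, 607 and 629 FPKM in NCO, 677, 671 and 828 FPKM in NC1, and 774, 836 and 757 FPKM in KO1. Its difference of -0.25 (limma adjusted p = 0.0468) held without NC1 replicate 1 or NC1 replicate 2 and was not called when any other single library was left out, with adjusted p-values between 0.0538 and 0.143. The RPL34 call held under 6 of the 19 alternatives. Among others, it ended after quantile normalization and where mitochondrial genes were taken out. RPS29 had the largest NCO minus NC1 difference of all members, -0.54, and was not called (-0.94 to -0.14, limma adjusted p = 0.076).

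NCO against KO1 sets the libraries labelled knockdown with decitabine against those labelled wild type with vehicle. It shares its libraries with both comparisons above. Here 64 members were called lower and 3 higher, beside 20.1% and 32.1% of all tested genes, together 52.2%, and 16 were not called. The median of members was -0.37, beside 0.08 for all tested genes. With libraries scaled to the same member median 27 members were lower and 14 higher, beside 814 and 7414 of all 12586 tested genes. The member median was -0.17 after quantile normalization, with 44 lower and 6 higher, and -0.23 where mitochondrial genes were taken out, with 53 lower and 6 higher. The median of all tested genes was 0.19 where mitochondrial genes were taken out, with 1618 of 12549 lower and 5786 higher. After quantile normalization 3080 of all 12586 tested genes were lower and 3027 higher. Groups did not overlap for 67 members that were lower and 3 that were higher, beside 24.0% and 37.2% of all tested genes. By subunit, 31 of 43 large and 27 of 31 small subunit genes, all 3 stalk genes and 3 of 6 paralogs were lower. The 3 higher members were RPL26 (0.85, limma adjusted p = 3.45e-07), RPL28 (0.41, limma adjusted p = 0.000795) and RPL11 (0.22, limma adjusted p = 0.0297). The call of RPL11 was lost without KO1 replicate 1, KO1 replicate 2 or NCO replicate 3, with adjusted p-values between 0.0882 and 0.121. It was also lost with no filter, under trimmed-mean scaling and without trend and robust settings.

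RPS29, a zinc-binding protein of the small subunit head, had the largest difference from KO1. It had 581, 526 and 608 FPKM in NCO, 823, 671 and 1037 FPKM in NC1, and 1443, 999 and 1241 FPKM in KO1. All NCO libraries lay below all others, while NC1 overlapped KO1. NCO fell by 1.09 relative to KO1 (-1.49 to -0.69, limma adjusted p = 0.00112), a ratio of means of 0.466. NC1 minus KO1 was -0.55 (limma adjusted p = 0.0318), a call lost without KO1 replicate 1, KO1 replicate 3, NC1 replicate 1 or NC1 replicate 2, with adjusted p-values between 0.0731 and 0.0883, and also with no filter, where mitochondrial genes were taken out, where libraries share the member median and in a fit of only the groups compared. RPS14 differed from KO1 by -1.04 in NCO (limma adjusted p = 4.57e-05) and RPS13, at 768 ± 34.4 FPKM in NCO, 897 ± 142 in NC1 and 1323 ± 48.5 in KO1, by -0.79 (limma adjusted p = 4.58e-05). RPS12 was at 1175 ± 58.6 FPKM in NCO, 1394 ± 278 in NC1 and 1967 ± 58.7 in KO1, with an NCO minus KO1 difference of -0.74 (limma adjusted p = 0.000292). RPLP2 followed at -0.68 (limma adjusted p = 1.86e-05) and RPS3A at -0.67 (limma adjusted p = 0.00036).

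RPS24 and RPL22L1, which were higher in NC1 than in KO1, were not called in NCO against KO1, with differences of 0.14 and 0.16 (limma adjusted p = 0.0602 and 0.328). Whether the NCO and NC1 values of these genes differ is tested by NCO minus NC1, in which neither was called.

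**Figure D4:**
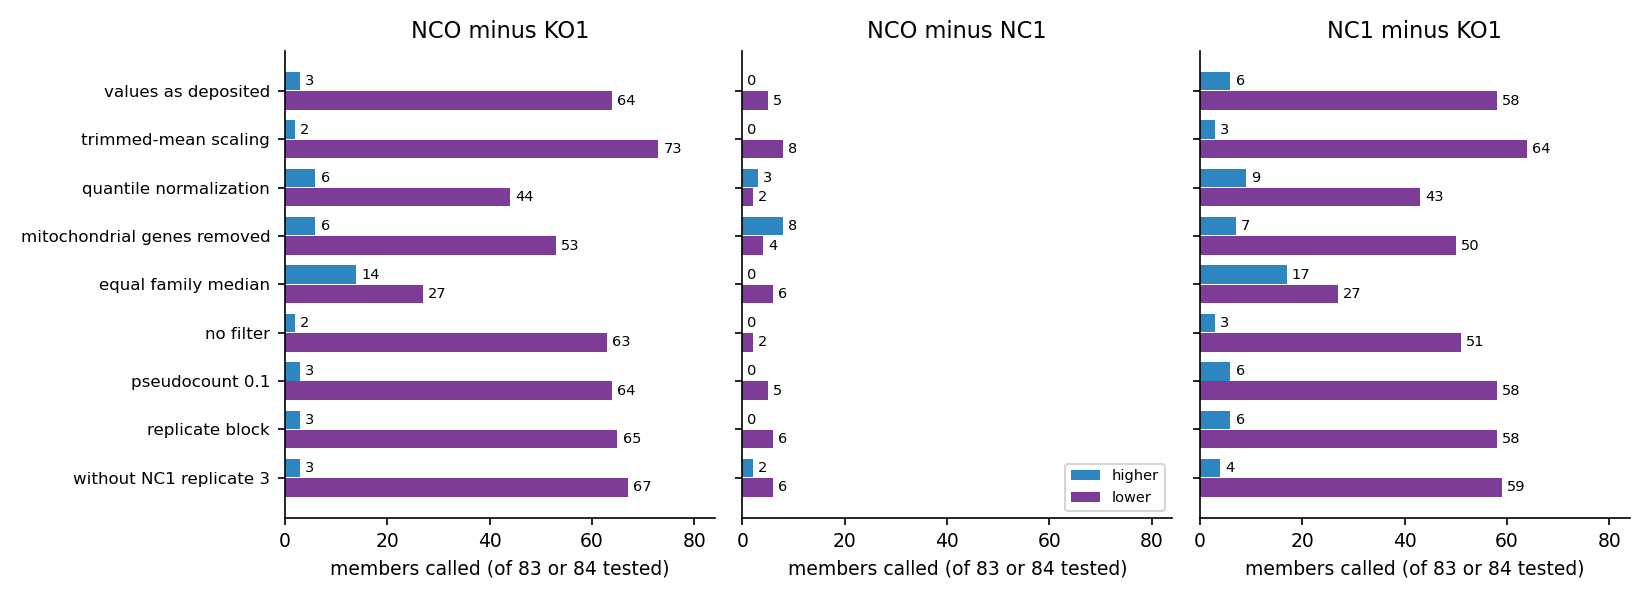
Number of members called higher (blue) and lower (purple) at a limma adjusted p under 0.05 in each comparison, with the values as deposited and under 8 other settings. The count of lower members falls to 27 in both comparisons with KO1 when libraries are scaled to the same member median, and NCO minus NC1 has 0 to 8 members called in either direction.

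Small nucleolar RNA genes lie within the annotated span of 28 members. Such RNAs are as a rule released from introns of the host message. In NC1 against KO1, 24 of these 28 were lower and 0 higher (median -0.33), and of the 55 tested members without one 34 were lower and 6 higher (median -0.24). In NCO against KO1 the counts were 26 lower and 0 higher with a small nucleolar RNA gene and 38 lower and 3 higher without. Of all tested genes, 18.3% were lower and 28.9% higher in NC1 against KO1, and 20.1% and 32.1% in NCO against KO1. After quantile normalization, 15 of the 28 were lower in NC1 than in KO1, beside 3078 of all 12586 tested genes. With libraries scaled to the same member median, 13 of the 28 were lower and 3 higher in that comparison. Under that scaling 703 of all 12586 tested genes were lower and 6862 higher. Members with a cytosine and at least 5 pyrimidines at the RefSeq start comprised 26 lower and 4 higher of 44 in NC1 against KO1, and the other matched members 17 lower and 1 higher of 23. Their medians were -0.26 and -0.29.

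Pseudogenes are an issue for this family, because processed copies of ribosomal protein messages are numerous and near-identical. The table holds 1236 pseudogenes named after 78 of the members, of which 65 passed the filter. Their summed FPKM was 0.909% ± 0.0625 of that of the members in NCO, 0.934% ± 0.0350 in NC1 and 0.869% ± 0.0419 in KO1. With them added, the family share was 21.7% in NCO, 21.7% in NC1 and 26.0% in KO1. In KO1 the pseudogenes of 3 members summed to more than 5% of the member's own level. How reads that fit several copies were assigned is not given in the sources used here. Read-through genes share exons with RPS10, RPL17 and RPL36A, and their mean levels were at most 24.9 FPKM.

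The ribosome components outside the symbol rule did not move as one. FAU, which encodes a ubiquitin-like protein fused to RPS30, was at 686 ± 30.1 FPKM in NCO, 761 ± 45.6 in NC1 and 976 ± 9.44 in KO1 and was lower in NC1 than in KO1 (-0.36, limma adjusted p = 0.000178). RACK1, a scaffold on the small subunit, was at 1503 ± 63.0 FPKM in NCO, 1451 ± 154 in NC1 and 1986 ± 69.3 in KO1 (-0.46, limma adjusted p = 0.000325). Both calls ended where libraries share the member median. RPL36AL, a copy of RPL36A, was at 101 ± 4.66 FPKM in NCO, 134 ± 6.33 in NC1 and 88.3 ± 5.63 in KO1. It was higher in NC1 than in KO1 (0.60, limma adjusted p = 8.83e-06) and lower in NCO than in NC1 (-0.40, limma adjusted p = 0.00186).

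Other genes whose transcripts are known to carry such tracts formed a list of 20. Most encode translation factors, and some have other roles, such as the noncoding SNHG1 and GAS5. In NC1 against KO1, 16 were lower and 0 higher (median -0.43), and in NCO against KO1, 14 were lower and 0 higher (median -0.47). Of all tested genes, 18.3% were lower and 28.9% higher in the first of these comparisons and 20.1% and 32.1% in the second. Where libraries share the member median, 9 of the list were lower and 1 higher in NC1 against KO1, and 8 lower and 6 higher in NCO against KO1. Under that scaling all 12586 tested genes had 703 lower and 6862 higher in the first comparison, and 814 and 7414 in the second. In NCO against NC1, 7 were higher and 0 lower (median 0.11), where the ribosomal proteins had 0 higher and 5 lower and all tested genes 6.12% higher and 8.62% lower. The higher count of 7 was 4 without NC1 replicate 1 and 4 without any single NCO replicate. EEF1A1, which brings aminoacyl-tRNA to the ribosome, was at 3442 ± 140 FPKM in NCO, 2322 ± 295 in NC1 and 4830 ± 340 in KO1, and was higher in NCO than in NC1 by 0.57 (limma adjusted p = 0.00265). EEF2, the translocation factor, was at 1249.5 ± 14.4 FPKM in NCO, 1014 ± 39.3 in NC1 and 1848 ± 8.54 in KO1. Its differences were -0.87 for NC1 minus KO1 (limma adjusted p = 3.02e-08) and 0.30 for NCO minus NC1 (limma adjusted p = 0.0017). EIF4B, a helicase cofactor, was at 122 ± 1.05 FPKM in NCO, 96.6 ± 1.92 in NC1 and 131 ± 0.506 in KO1 (NCO minus NC1 0.33, limma adjusted p = 0.000599). PABPC1, the poly(A)-binding protein, was at 721 ± 39.3 FPKM in NCO, 542 ± 36.5 in NC1 and 716 ± 13.8 in KO1 (NCO minus NC1 0.41, limma adjusted p = 0.0017).

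EEF1B2, an exchange factor of EEF1A1, was at 668 ± 14.3 FPKM in NCO, 580.3 ± 24.3 in NC1 and 1023 ± 53.2 in KO1 (NC1 minus KO1 -0.82, limma adjusted p = 2.78e-07). EIF3F, an initiation factor subunit, was at 27.5 ± 0.321 FPKM in NCO, 26.7 ± 0.827 in NC1 and 41.5 ± 1.26 in KO1 (NC1 minus KO1 -0.62, limma adjusted p = 1.49e-06). SNHG1, a noncoding host of small nucleolar RNAs, was at 40.5 ± 0.654 FPKM in NCO, 37.7 ± 3.37 in NC1 and 132 ± 3.13 in KO1, the largest difference of the list (NC1 minus KO1 -1.79, limma adjusted p = 1.43e-09).

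**Figure D5:**
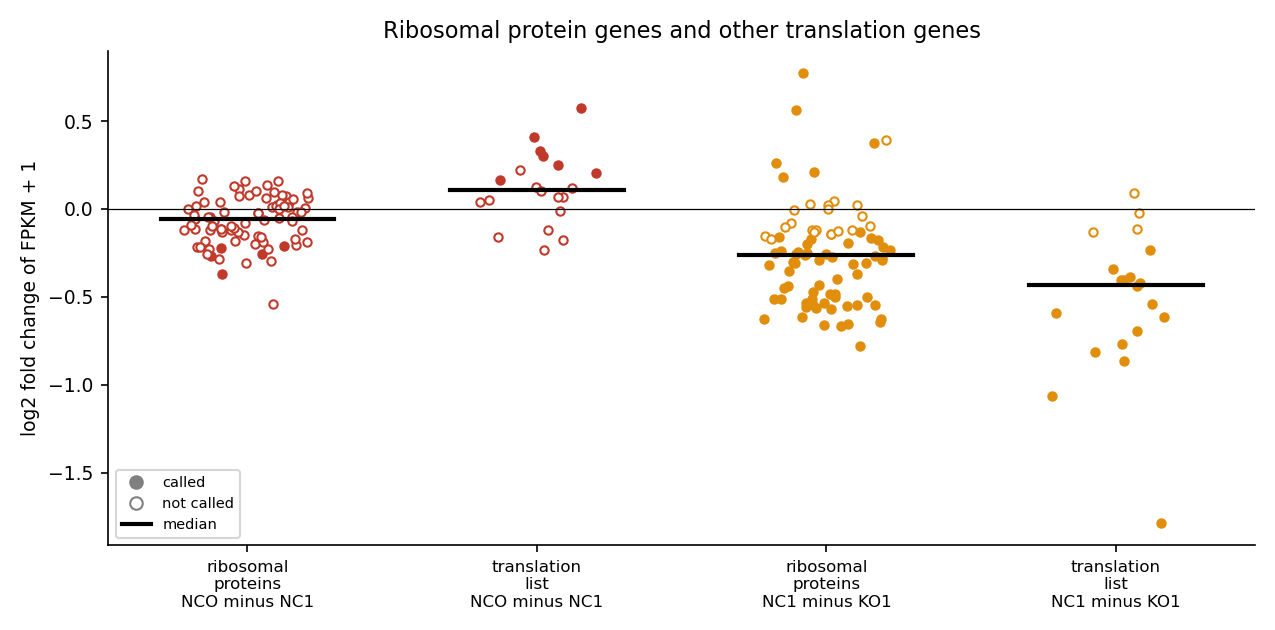
Log2 fold change of FPKM + 1 of each tested ribosomal protein gene and of each gene of the list of 20 other genes (translation list), in NCO minus NC1 (red) and NC1 minus KO1 (orange), with the median as a bar. Most but not all genes of that list encode translation factors. Filled points were called at a limma adjusted p under 0.05. The medians are -0.06 and 0.11 in NCO minus NC1 and -0.26 and -0.43 in NC1 minus KO1, as deposited. The median of the ribosomal protein genes in NCO minus NC1 is 0.00 where values are quantile normalized and 0.01 where mitochondrial genes are taken out, and in NC1 minus KO1 it is 0.01 where libraries are scaled to the same member median.

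The remaining initiation factors went both ways. Of 23, 6 were higher and 9 lower in NC1 than in KO1, and 1 was higher and 3 lower in NCO than in NC1. The shares over all tested genes were 28.9% higher and 18.3% lower in NC1 against KO1, and 6.12% and 8.62% in NCO against NC1. Where libraries share the member median, 12 were higher and 3 lower in NC1 than in KO1. Under that scaling 6862 of all 12586 tested genes were higher and 703 lower. After quantile normalization 5 were higher in NCO than in NC1, beside 1072 of all 12586 tested genes. The subunit joining factor EIF5B was at 5.67 ± 0.307 FPKM in NCO, 10.7 ± 0.239 in NC1 and 5.27 ± 0.592 in KO1, higher in NC1 than in KO1 by 0.90 (limma adjusted p = 3.60e-06) and lower in NCO than in NC1 (-0.81, limma adjusted p = 0.000307). EIF1, which guards start codon choice, was at 284 ± 7.32 FPKM in NCO, 289 ± 31.9 in NC1 and 575 ± 15.6 in KO1 (NC1 minus KO1 -0.998, limma adjusted p = 5.44e-07). Of 13 tested genes of ribosomal RNA transcription, 4 were higher and 4 lower in NC1 than in KO1, and 6 and 1 where libraries share the member median. MYC, which drives ribosome biogenesis, was at 27.9 ± 1.60 FPKM in NCO, 24.9 ± 0.935 in NC1 and 37.9 ± 1.37 in KO1 (NC1 minus KO1 -0.58, limma adjusted p = 9.38e-06). TTF1, which terminates that transcription, was at 4.19 ± 0.327 FPKM in NCO, 5.56 ± 0.615 in NC1 and 3.43 ± 0.518 in KO1 (NC1 minus KO1 0.57, limma adjusted p = 0.000931).

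Of 46 tested processing and assembly factors, 12 were higher and 11 lower in NC1 than in KO1, and 0 were higher and 5 lower in NCO than in NC1. The higher count of 12 was 6 without KO1 replicate 2, and the lower count of 5 was 3 without NCO replicate 2. Of all tested genes, 28.9% were higher and 18.3% lower in NC1 against KO1, and 6.12% and 8.62% in NCO against NC1. The split in NC1 minus KO1 rests on the scaling. It was 21 higher and 1 lower where libraries share the member median, and 6 higher and 19 lower under trimmed-mean scaling. All 12586 tested genes had 6862 higher and 703 lower under the first of these scalings, and 2972 and 3115 under the second. NOP58, a core protein of box C/D particles, was at 16.3 ± 0.618 FPKM in NCO, 20.7 ± 0.399 in NC1 and 12.5 ± 0.252 in KO1, higher in NC1 than in KO1 by 0.68 (limma adjusted p = 1.57e-06) and lower in NCO than in NC1 (-0.33, limma adjusted p = 0.00335). FBL, the methyltransferase of the same particles, was at 103 ± 4.85 FPKM in NCO, 103.5 ± 1.90 in NC1 and 129.7 ± 6.03 in KO1 (NC1 minus KO1 -0.32, limma adjusted p = 0.000284), a call that ended where libraries share the member median. TSR1, an assembly factor of the small subunit, was at 8.44 ± 0.613 FPKM in NCO, 7.63 ± 0.0699 in NC1 and 4.12 ± 0.172 in KO1 (NC1 minus KO1 0.75, limma adjusted p = 5.82e-06).

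Among 19 genes of mTOR and LARP1 signalling, 3 were higher and 7 lower in NC1 than in KO1, beside 28.9% and 18.3% of all tested genes. With libraries scaled to the same member median the list had 11 higher and 1 lower, beside 6862 and 703 of all 12586 tested genes. LARP1 was at 34.0 ± 0.991 FPKM in NCO, 31.0 ± 0.492 in NC1 and 40.8 ± 1.44 in KO1 (NC1 minus KO1 -0.38, limma adjusted p = 5.94e-05), and its call ended under that scaling. MLST8, a subunit of both mTOR complexes, was at 47.4 ± 0.380 FPKM in NCO, 45.6 ± 2.16 in NC1 and 77.1 ± 2.44 in KO1 (NC1 minus KO1 -0.75, limma adjusted p = 3.61e-07), and RICTOR, of the second complex, at 3.37 ± 0.227 FPKM in NCO, 3.39 ± 0.417 in NC1 and 1.77 ± 0.161 in KO1 (NC1 minus KO1 0.66, limma adjusted p = 0.000153). Of 10 tested importins and chaperones of ribosomal proteins, 3 were higher and 3 lower in NC1 than in KO1, and 4 and 1 where libraries share the member median. IPO5 was lower in NC1 (-0.46, limma adjusted p = 0.000148), at 18.6 ± 0.895 FPKM in NCO, 15.6 ± 0.880 in NC1 and 21.95 ± 1.31 in KO1, and TNPO1 was higher (0.51, limma adjusted p = 0.000316), at 10.3 ± 0.426 FPKM in NCO, 8.48 ± 0.902 in NC1 and 5.64 ± 0.344 in KO1.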

How the data were processed

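RNA of MV4-11 cells was extracted with Trizol and made into Illumina TruSeq libraries, per the labels' protocols. The submitters' processing notes name CASAVA 1.8, Trimmomatic, FastQC, HISAT2, StringTie, edgeR and GRCh38, without roles. The deposited gene table names no unit, and its values were read as the authors' FPKM from the named tools and from the sums per library. The annotation release and the handling of reads with several matches are not given in the sources used here. Depth is unknown, since low values gave no common step (the commonest ratio held 0.342% of low genes), so no counting interval is given.

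Differences were tested with limma 3.58.1 (R 4.3.3, trended and robust empirical Bayes) on log2(FPKM + 1) over all 9 libraries. The filter of at least 1 FPKM in at least 3 libraries kept 12586 of 60612 genes, and p-values were adjusted by Benjamini-Hochberg over all of them, with 0.05 as the threshold. A gene is called higher or lower past it. Fold changes on this scale understate changes of low genes. The fit was tested on simulated data. Tables and figures used Python 3.11.15, pandas 2.3.3 and matplotlib 3.10.9.

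Named members are the 6 called with the largest change in each direction and comparison, the 6 highest and 6 lowest, and the paralog, stalk, anaemia and leukaemia lists, and of other lists up to 4 called genes with the smallest adjusted p per comparison. Some genes of these lists are not reported here. The members and lists were chosen with earlier results of these data known. In all, 19 alternatives were computed: other pseudocounts, filters, scalings and model settings, a fit to the compared groups alone, a replicate term, and each library left out. Sequences are from RefSeq, GRCh38.p14.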

Additional observations from a re-analysis of the deposited data

How the results depend on the processing

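The scaling of libraries had the largest influence on the counts. The counts over all tested genes moved with the scaling as well. In NC1 minus KO1, members called higher were 3 with no filter, 3 under trimmed-mean scaling, 3 without trend and robust settings and 17 where libraries share the member median, and 3 to 7 when single libraries were left out. Members called lower were 27 where libraries share the member median. In NCO minus NC1, members called numbered 2 with no filter, 8 under trimmed-mean scaling, 12 with mitochondrial genes removed and 3 without trend and robust settings, and 3 to 8 when single libraries were left out. Those called higher were 3 after quantile normalization and 8 where mitochondrial genes were taken out (0 to 2 with single libraries left out), and those called lower were 2 with no filter, 8 under trimmed-mean scaling, 2 after quantile normalization and 3 without trend and robust settings (2 to 6 with single libraries left out). In NCO minus KO1, members called were 41, higher 14 and lower 27 where libraries share the member median, while 6 were higher after quantile normalization, and 6 where mitochondrial genes were taken out. The family share without mitochondrial genes in the sum was 26.2% in NCO, 25.7% in NC1 and 30.3% in KO1. Where libraries share the member median, the sign of NC1 minus KO1 turned for RPS9 (0.034), RPS4Y1 (0.0092), RPLP1 (0.0078), RPS19 (0.0022), and RPL22 (0.23), and that of NCO minus KO1 for RPS28 (0.11), RPL7L1 (0.056), RPS27 (0.072), POLR1D (0.0030), POLR1E (0.040), IPO5 (0.053) and NACA (0.055). After quantile normalization RPL13A (0.011) and RPL22 (0.0078) turned in NC1 minus KO1, and RPS28 (0.0044) in NCO minus KO1. RPL22 was 0.030 with mitochondrial genes removed and ran from -0.089 to 0.0066 when single libraries were left out. Apart from the shift that the scalings impose by construction, the cause was not tested. Under all 19 alternatives 29 of 64 calls held in NC1 minus KO1, 1 of 5 in NCO minus NC1 and 29 of 67 in NCO minus KO1. These 19 include the scaling to the same member median, which moves the family centre toward 0 by construction. Of members not called, 17 of 19, 19 of 78 and 15 of 16 in these comparisons were called under some alternative. Replicate numbers did not pair the libraries: correlations of same-numbered deviations lay between -0.101 and 0.0797, and with a replicate block 6 members were higher and 58 lower in NC1 minus KO1, 0 and 6 in NCO minus NC1, and 3 and 65 in NCO minus KO1. The unknown depth limits what can be said of low paralogs.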
